A study of Mus musculus with 10 samples.

Results

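Expression of 7 cytokine genes was examined in tongue epithelial cultures: the colony-stimulating factors Csf3 and Csf1, tumor necrosis factor (Tnf), and the interleukin-1 (IL-1) family members Il1a, Il1b, Il1rn and Il18. They were chosen by symbol from 18584 genes of a bulk RNA-seq table, all 7 were listed there, and 6 passed the filter for testing, which left 11629 genes. The 6 EY libraries came from 3 lines of cells, EY3960, EY4028 and EY4174, with 2 libraries each. These cells carried tetON_E6-E7 and tetON_YAP1S127A, which give HPV16 E6-E7 and constitutively active YAP1 upon doxycycline, together with the Krt14-CreERT driver, the LSL-rtTA transactivator and the tetON_H2B-GFP reporter. The 4 N libraries came from the single line N4172, which carried the driver, transactivator and reporter without the oncogenes. All cells were taken from the tongue epithelium of adult littermate mice 15 days after induction with tamoxifen and doxycycline, sorted for GFP and grown as primary cultures in medium with doxycycline, EGF and cholera toxin. Cre was driven by Krt14, so recombination was directed to keratin 14-positive epithelial cells. Genotype and line cannot be told apart, because N was 1 line, and the libraries of a line were not shown to come from separate animals or cultures. The p-values therefore measure the spread between these libraries, which may be technical.

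Epithelial cells release cytokines that reach leukocytes and neighboring epithelial cells. Csf3 encodes G-CSF, which drives the production and release of neutrophils, and Csf1 encodes M-CSF, a survival and growth factor of macrophages. Tnf encodes a membrane-anchored ligand that is shed by a protease and acts through TNF receptors on NF-kB and cell death pathways. IL-1 alpha (Il1a), which keratinocytes store, and IL-1 beta (Il1b) activate the same receptor, Il1r1 with Il1rap. Il1rn encodes the antagonist that occupies this receptor without activating it. IL-18 (Il18) is made as a precursor that is cleaved by caspase-1 and acts on a receptor of its own.

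Values were TPM, a within-library abundance per transcript length, with sequencing depth unknown, so that no counting interval or detection limit could be set. Yap1, read as a check of the labels, lay between 34.7 and 57.1 TPM in EY and between 17.2 and 20.9 in N, higher in every EY library (log2 fold change 1.17, limma adjusted p 1.73e-04). How reads of the YAP1S127A transgene were assigned is unknown, so transgene and mouse gene cannot be told apart in this value. The check does not cover E6-E7. All 8 epithelial markers examined were listed, and their summed level lay between 6570 and 9428 TPM in EY and 7329 and 8027 in N. Of 11 pan-immune and myeloid markers, 4 were listed, with sums of 34.9 to 79.8 TPM in EY and 52.4 to 80.4 in N that came almost entirely from Cd68 and Coro1a. The leukocyte gene Ptprc averaged 0.141 TPM in EY and 0.0918 in N, and Csf1r 0.0217 and 0.0065. Granulocyte markers (3 of 8 listed) summed to 0.964 to 2.14 TPM in EY and 0.787 to 1.60 in N. Melanocyte markers (3 of 4 listed) summed to 0.311 to 1.06 TPM in EY and 1.12 to 3.24 in N, and skeletal muscle markers (2 of 4 listed) to 0.0560 to 0.304 and 0.365 to 0.933, so that both were lower in every EY library. Their part in the results was not tested. The listed lymphoid, fibroblast and endothelial markers summed to at most 0.748 TPM in any library, with overlapping groups. Mitochondrial genes held 14.1 to 20.5% of the TPM. The N library of sample 4 stood apart from the other N libraries for Il1rn and Tnf, and results that rest on it are given without it as well. In bulk libraries, more cells that express a gene and more RNA per cell cannot be told apart.

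Promoter sequences of the 3 members whose EY libraries all lay above the N libraries and for which RefSeq had an entry are shown to let their letters be compared. RefSeq entries were found for 6 of the 7 members, with Csf3 the exception. Each run is the 250 bases before the transcription start in mouse build GRCm38.p6, read 5′ to 3′ on the minus strand, with matches to the motifs below in capitals. Tnf lies at chr17:35202008-35202257, Il1a at chr2:129309973-129310222 and Csf1 at chr3:107760470-107760719. The processing notes of the submitters name GRCm39, so these positions belong to the RefSeq build only.
Tnf: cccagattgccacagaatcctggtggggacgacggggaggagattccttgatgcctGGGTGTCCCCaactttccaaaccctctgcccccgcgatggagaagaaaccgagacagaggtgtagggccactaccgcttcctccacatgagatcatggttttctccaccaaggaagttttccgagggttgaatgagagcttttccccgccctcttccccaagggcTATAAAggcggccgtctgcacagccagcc
Il1a: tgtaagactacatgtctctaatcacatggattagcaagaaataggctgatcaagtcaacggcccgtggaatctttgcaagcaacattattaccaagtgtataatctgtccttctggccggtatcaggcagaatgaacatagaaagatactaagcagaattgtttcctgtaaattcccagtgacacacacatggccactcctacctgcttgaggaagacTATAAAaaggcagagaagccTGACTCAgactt
Csf1: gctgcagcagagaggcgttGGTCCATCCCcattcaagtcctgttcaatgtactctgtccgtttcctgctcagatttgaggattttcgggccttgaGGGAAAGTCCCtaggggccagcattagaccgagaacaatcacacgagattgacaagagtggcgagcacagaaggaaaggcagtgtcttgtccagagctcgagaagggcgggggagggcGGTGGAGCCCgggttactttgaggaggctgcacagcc
The motifs, chosen with the expression results known, were searched on both strands: NF-kB as GGG and CC with 5 bases of any kind between them, AP-1 as TGANTCA, TEAD, the DNA-binding partner of YAP, as GGAATG, and the TATA box as TATAAA. The Tnf run held the NF-kB letters from -194 to -185, on both strands at the same bases, and a TATA box from -29. The Il1a run held an AP-1 match from -12 to -6 and a TATA box from -32. In the Csf1 run the NF-kB letters occurred 4 times, of which 2 overlap from -155 to -145. None of these 3 runs held the TEAD letters. Among the other members, Il1rn had 3 RefSeq starts, of which 1 held TEAD letters from -24 to -19 and NF-kB letters from -51 to -42, and another held NF-kB letters from -54 to -45 and an AP-1 match from -141 to -135. Il1b and Il18 each held a TATA box match and no other. Of 32851 RefSeq promoters of the same length, 45.8% held the NF-kB letters, 6.75% AP-1, 12.6% TEAD and 12.4% TATAAA, so the NF-kB match in particular is common, and no match was tested for binding.

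Of the 7 genes, Csf3, Tnf and Il1a were called higher in EY than in N, and 0 of 7 were called lower by limma, while 2, Il1rn and Il18, were lower at an unadjusted p under 0.05. For a call, the p adjusted by Benjamini-Hochberg had to be under 0.01 and the log2(TPM + 1) difference over 1 in size, on a scale that understates the change of genes with few TPM. Over all genes tested, 3.55% were called, 1.85% higher and 1.7% lower. The unadjusted p of limma was under 0.05 in 4367 of the 11629 genes tested, in either direction, so that cutoff is often passed here. In 4 of the 7 genes, namely Csf3, Tnf, Il1a and Csf1, every EY library lay above every N library, and in 0 of 7 every EY library lay below. The corresponding shares of all genes tested were 11.3% above and 9.1% below. Over all genes the median log2 fold change was 0.03. Tnf and Csf1 reached 1 TPM in 6 and 5 EY libraries and in 0 N libraries, so they passed the filter only through the group where they were high. Il18 reached 1 TPM in 1 EY and 4 N libraries, so N libraries alone met the filter for it. No support is drawn from the count over tested members. The 3 calls treat libraries as replicates. With 1 mean per line none of the 3 was called (limma adjusted p 0.465 for Csf3, 0.178 for Tnf and 0.330 for Il1a), and with a block by sample number Csf3 (0.0274) and Il1a (0.0186) were not called.

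**Figure D1:**
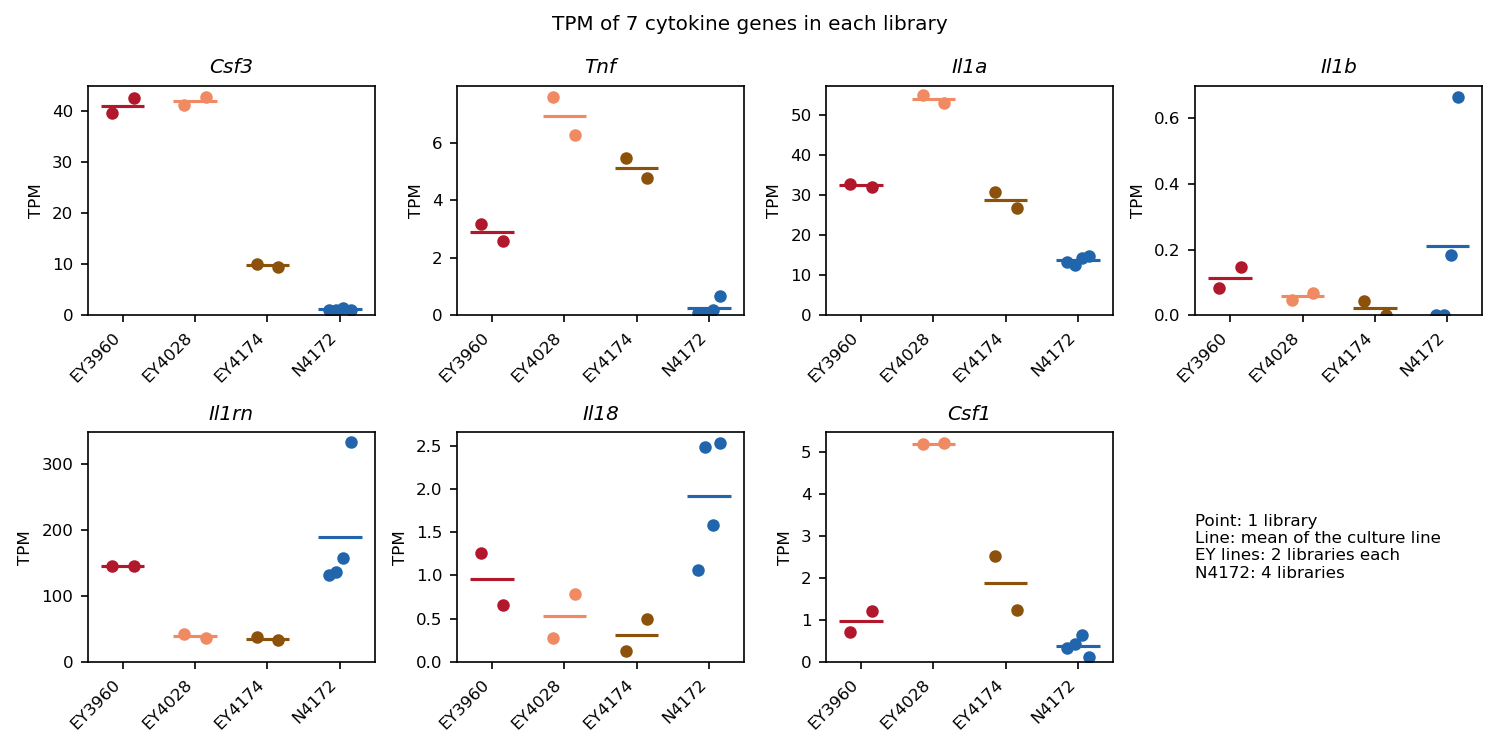
TPM (linear axes from 0) of the 7 genes in each of the 10 libraries, by line, with each point 1 library and each bar the mean of its line. Csf3, Tnf, Il1a and Csf1 had every EY point above every N point, whereas Il1rn in EY3960 lay within the N range and in EY4028 and EY4174 below it.

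Csf3 had the largest log2 fold change of the 6 genes tested. Its level was 39.6 and 42.5 TPM in samples 1 and 2 of EY3960, 41.1 and 42.8 in EY4028, and 10.1 and 9.48 in EY4174. The N libraries held 1.14, 1.02, 1.54 and 1.00 TPM. The lowest EY library was thus above the highest N library, while EY4174 was low among the EY lines. The ratio of the EY mean to the N mean was 26.3, and the log2 fold change was 3.63 ± 0.48 (SE, limma adjusted p 7.26e-04, n = 6 and 4). Against N, the difference was 4.28 ± 0.12 (SE) in EY3960, 4.31 ± 0.12 in EY4028 and 2.31 ± 0.12 in EY4174 on the log2 scale, and the gene was called in each line. The lines differed from one another (limma F test, adjusted p 4.70e-06): EY4174 was lower than EY3960 by 1.96 and than EY4028 by 1.99 on the log2 scale, whereas EY3960 and EY4028 were 0.03 apart.

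The macrophage factor Csf1 also rose in part of the lines. It was at 0.722 and 1.22 TPM in EY3960, 5.18 and 5.20 in EY4028, and 2.52 and 1.23 in EY4174. In N it was at 0.340, 0.421, 0.649 and 0.112 TPM. EY4028 was the highest line, and the lower EY3960 library lay just above the highest N library. The log2 fold change over all EY libraries was 1.24 ± 0.36 (SE) with a limma adjusted p of 0.0292, and the gene was not called. With a pseudocount of 0.1 TPM the value was 2.31 (adjusted p 0.0129). In single lines the difference from N was 2.18 ± 0.22 (adjusted p 4.05e-05) in EY4028, which was called in each of 10 fits that left out 1 library. It was 1.03 ± 0.22 (adjusted p 0.00520) in EY4174, called in 4 of those 10 fits, and 0.52 ± 0.22 (adjusted p 0.0994) in EY3960. The lines differed (F test, adjusted p 0.00253), with EY4028 above EY3960 by a log2 difference of 1.66, but this call was lost in 3 of 10 fits, without sample 1 of EY3960 (adjusted p 0.0174) or without sample 1 or 2 of EY4028 (0.0235 and 0.0239).

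Tnf was near 0 in N and was present in every EY line. It was at 3.18 and 2.60 TPM in EY3960, 7.60 and 6.27 in EY4028, and 5.48 and 4.78 in EY4174. The N libraries held 0.0948, 0.101, 0.178 and 0.677 TPM. The groups did not overlap, EY3960 was the lowest EY line, and N sample 4 was far above the other N libraries, whose mean without it was 0.125 TPM. The EY mean was 19.0 times the N mean, and 40.0 times without N sample 4, where the ratio for Csf3 was 25.0. The log2 fold change was 2.20 ± 0.24 (SE, limma adjusted p 7.82e-05, n = 6 and 4), and 2.35 (adjusted p 1.75e-04) without N sample 4. With a pseudocount of 0.1 TPM it was 3.98 (adjusted p 7.86e-05), and without the filter on low values 2.20 (adjusted p 1.45e-04). Differences from N were 1.64 ± 0.19 (SE) in EY3960, 2.67 ± 0.19 in EY4028 and 2.30 ± 0.19 in EY4174, and all 3 were called in every fit that left out 1 library. The order of the EY lines was not called (F test, adjusted p 0.0210). It was called without N sample 4 (adjusted p 0.00154), whose spread enters the estimate for all lines.

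Il1a was expressed in N and rose in each EY line. EY3960 held 33.0 and 32.1 TPM, EY4028 55.2 and 53.1, and EY4174 30.7 and 26.8. N held 13.4, 12.6, 14.2 and 14.9 TPM. The EY mean was 2.79 times the N mean, and EY4028 stood above both other EY lines. The log2 fold change was 1.36 ± 0.19 (SE, limma adjusted p 5.38e-04, n = 6 and 4). By line it was 1.18 ± 0.10 (SE) in EY3960, 1.90 ± 0.10 in EY4028 and 1.01 ± 0.10 in EY4174, the last just past the fold threshold and called in 7 of 10 fits that left out 1 library. Among EY lines the adjusted p was 6.25e-04, but no pair of lines differed by more than 0.89 on the log2 scale, so that the gene was not called.

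The other IL-1 receptor agonist, Il1b, was barely detected. EY3960 held 0.0839 and 0.147 TPM, EY4028 0.0479 and 0.0685, and EY4174 0.0450 and a value listed at 0. Samples 1 and 2 of N were listed at 0, and samples 3 and 4 held 0.184 and 0.664 TPM. No library reached 1 TPM, the groups overlapped, and the gene was not tested.

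Il1rn, the receptor antagonist, was the most abundant of the 7 genes in N and was called lower in EY4028 and EY4174. It was at 144.9 and 145.2 TPM in EY3960, 42.4 and 36.0 in EY4028, and 37.1 and 33.8 in EY4174. N held 132.3, 135.8, 157.1 and 332.2 TPM. Both EY3960 libraries lay inside the N range, both other EY lines lay below all N libraries, and N sample 4 was far above the rest. Over all EY libraries the log2 fold change was -1.56 ± 0.54 (SE, limma adjusted p 0.0665) and not called. Against N the difference was in EY4028 -2.14 ± 0.34 (SE, adjusted p 0.00288), and in EY4174 -2.27 ± 0.34 (adjusted p 0.00226). In EY3960 it was at -0.27 ± 0.34 (adjusted p 0.611). Without N sample 4 the differences were -1.83 (adjusted p 1.53e-07) in EY4028, -1.97 (1.28e-07) in EY4174 and 0.04 (0.784) in EY3960, which turned the sign of the last. Each of the called lines kept its call in 8 of 10 such fits and lost it when either of its own libraries was left out. EY3960 was above EY4028 by a log2 difference of 1.87 and above EY4174 by 2.00, which the F test did not call with all libraries (adjusted p 0.0170) and did call without N sample 4 (2.21e-07).

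Il18 was low everywhere. It was at 1.25 and 0.660 TPM in EY3960, 0.275 and 0.789 in EY4028, and 0.123 and 0.494 in EY4174. N held 1.07, 2.48, 1.58 and 2.53 TPM. Il18 reached 1 TPM in 1 EY and 4 N libraries, so N libraries alone met the filter. The first EY3960 library lay within the N range and the other EY libraries lay below it. The log2 fold change was -0.87 ± 0.22 (SE, limma adjusted p 0.0138), not called, and -1.68 (adjusted p 0.0258) with a pseudocount of 0.1 TPM. EY4174 was called lower, at -1.14 ± 0.26 (SE, adjusted p 0.00777), but only in 2 of 10 fits that left out 1 library. EY4028, at -0.91 ± 0.26 (adjusted p 0.0213), and EY3960, at -0.56 ± 0.26 (0.131), were not called, and the EY lines did not differ by the test (adjusted p 0.333).

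Counted by line, EY3960 had 3 members called higher and 0 lower, EY4028 had 4 higher and 1 lower, and EY4174 had 4 higher and 2 lower. Of all genes tested, 7.04% were called in EY3960, 5.74% in EY4028 and 4.95% in EY4174, in either direction. Csf3, Tnf and Il1a were called in all 3 lines, but the 3 comparisons share the N libraries. Between EY lines, 2 members, Csf3 and Csf1, were called, beside 5.13% of all genes.

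**Figure D2:**
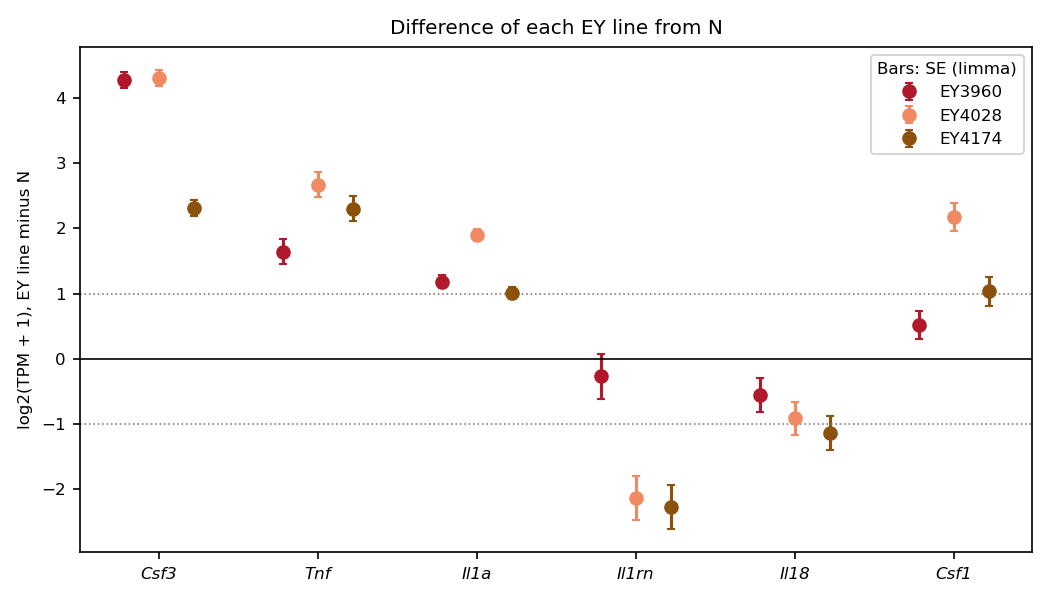
Difference of each EY line from N in log2(TPM + 1) for the 6 genes tested, with bars of 1 SE from limma and dotted lines at the fold threshold. Csf3, Tnf and Il1a lay above 1 in all 3 lines, and Il1rn lay at -0.27 in EY3960 against -2.14 and -2.27 in the other lines.

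Levels were set side by side within a library, since TPM is per transcript length. How these TPM were made is not stated, and the choice of transcript affects such an order. In N the order was Il1rn (mean 189 TPM), Il1a (13.8), Il18 (1.92), Csf3 (1.18), Csf1 (0.380), Tnf (0.263) and Il1b (0.212). The ranges of Il18 and Csf3 overlapped, as did those of Csf1, Tnf and Il1b. In EY3960 Il1rn (145 TPM) led, followed by Csf3 (41.0) and Il1a (32.5), without overlap between these genes, and Csf1 and Il18 overlapped further down. In EY4028 Il1a (54.1 TPM) was the highest, above Csf3 (41.9) and Il1rn (39.2), which overlapped. In EY4174 Il1rn (35.4 TPM) was followed by Il1a (28.8), Csf3 (9.77) and Tnf (5.13), with no overlap of neighbors. Csf3 thus held the third place or a higher one in every EY line and the fourth place in N.

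Transcripts of the IL-1 receptor antagonist and of an agonist were compared by the ratio of Il1rn to Il1a TPM in each library, without a measure of protein. It was 9.87, 10.8, 11.0 and 22.2 in N. It was 4.40 and 4.52 in EY3960, 0.769 and 0.678 in EY4028, and 1.21 and 1.26 in EY4174. Every EY library lay below every N library, and in EY4028 Il1a exceeded Il1rn on the TPM scale. The geometric mean was 1.58 in EY and 12.7 in N, a difference of -3.01 in the mean log2 ratio (two-sided exact permutation test, p = 0.00952, the smallest possible for n = 6 and 4 libraries). Any full separation of these groups gives this p. Il1a by itself was fully separated, and of all genes tested 11.3% lay above all N libraries and 9.1% below. The permutation test treats libraries as replicates, and the ratio was not tested with 1 mean per line. The difference was -2.74 without N sample 4 (exact permutation p = 0.0238) and lay between -3.75 and -2.44 when 1 EY line was left out. In EY3960 the ratio was below N with Il1rn inside the N range and Il1a above it, whereas in EY4028 and EY4174 both genes lay outside the N range.

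**Figure D3:**
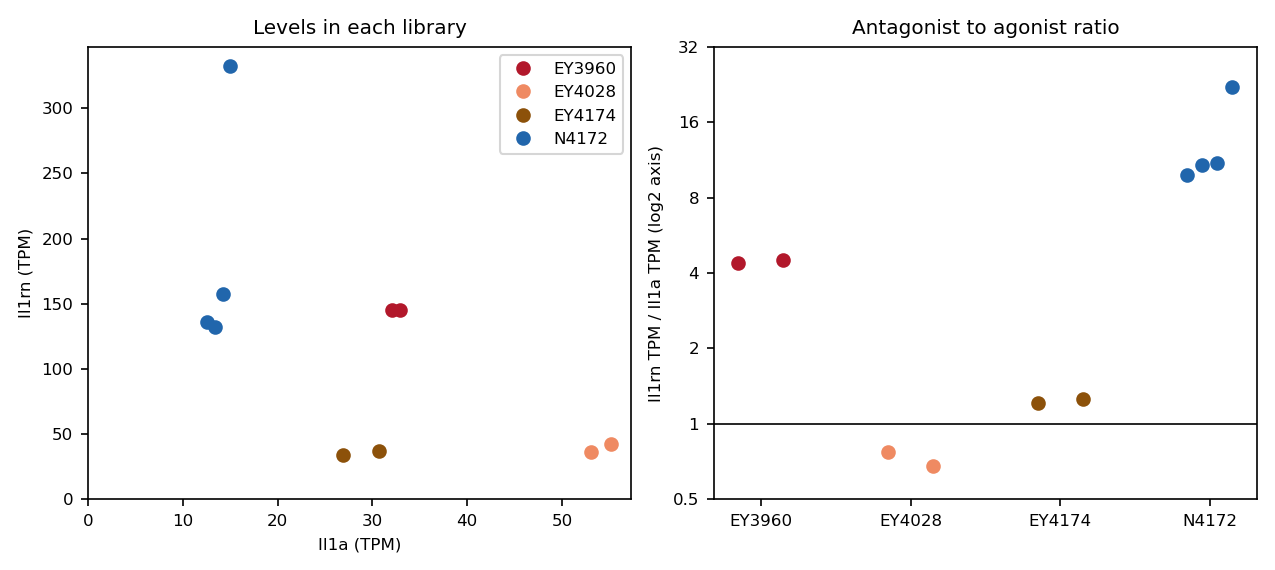
Left, Il1rn against Il1a in TPM for each library, and right, their ratio on a log2 axis with a line at 1, with colors for the 4 lines. N libraries had ratios of 9.87 to 22.2 and EY libraries of 0.678 to 4.52.

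Genes around the cytokines were examined in 8 lists. Among 9 ligands and receptors of the CSF family, 7 were listed and 3 tested, of which 2 were called higher and 0 lower. These counts are shaped by the filter, since Csf1 and Csf2 reached 1 TPM only in EY libraries, and no median is given. The called gene beside Csf3 was Csf2, which encodes GM-CSF, a growth factor of granulocytes and macrophages. Csf2 had means of 7.44 ± 3.73 (EY) and 0.412 ± 0.099 TPM (N, SD, n = 6 and 4) and a log2 fold change of 2.47 ± 0.28 (SE), with differences from N of 1.86 in EY3960, 3.18 in EY4028 and 2.37 in EY4174. Receptors were below the filter. Csf3r averaged 0.0858 TPM in EY and 0.0467 in N. Csf2ra, a receptor subunit for GM-CSF, lay between 0.0888 and 0.438 TPM in EY and between 0.597 and 0.804 in N, lower in every EY library, and was not tested. Both were singled out with their values known.

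In the IL-1 pathway, 8 of 14 ligands were listed and 4 tested, with 1 called higher (Il1a) and 0 lower, and a median log2 fold change of -0.37. The filter shapes these values, since N libraries alone brought Il18 past it. Of 16 IL-1 family receptors and adaptors, 15 were listed and 11 tested, with 0 called in either direction by limma and a median of 0.02. At an unadjusted p under 0.05, 1 of the 11 was higher and 2 were lower, beside 4367 of all 11629 genes tested in either direction. Il1r1, the signaling receptor of both agonists and the antagonist, had means of 8.12 (EY) and 8.68 TPM (N; log2 fold change -0.11, adjusted p 0.692). Traf6, an adaptor below the receptor, was at -0.50 (adjusted p 0.00983), which misses the fold threshold. Both were singled out with their values known. Of 13 genes of the inflammasome and of cytokine processing, 11 were listed and 7 tested, with 1 called higher and 0 lower by limma (median 0.06). At an unadjusted p under 0.05, 2 were higher and 3 lower, again beside 4367 of all 11629 genes tested. The called gene was Capn2, a subunit of calpain, the protease family that cleaves the IL-1 alpha precursor, with means of 85.7 ± 11.5 (EY) and 42.3 ± 6.53 TPM (N, SD) and a log2 fold change of 1.00 ± 0.12 (SE) that lies at the threshold. The 3 lower genes, singled out with their values known, were Casp1, which encodes caspase-1, its adaptor Pycard, and Gsdmd, whose product forms the pore through which IL-1 beta leaves cells. Gsdmd lay between 0.0292 and 1.30 TPM in EY and 1.67 and 1.94 in N, lower in every EY library (log2 fold change -0.91, adjusted p 0.0109). Casp1 was at -0.78 over all EY libraries (adjusted p 0.0993), but was called lower in EY4028 at -1.22 (9.66e-05) and in EY4174 at -1.27 (9.25e-05), and was at 0.14 (0.498) in EY3960. Pycard was at -0.90 (adjusted p 0.122). Gsdmd reached 1 TPM in 1 EY and 4 N libraries, and Casp1 in 2 and 4. For both, N libraries alone met the filter, which shapes the counts and the median of this list.

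In the TNF pathway, 9 of 18 superfamily ligands were listed and 3 tested, with 2 called higher, Tnf and Tnfsf15, and 0 lower. The filter shapes these counts, since Tnf reached 1 TPM only in EY, and Tnfsf15 in 6 EY and 2 N libraries. For both, EY libraries alone met the filter. Tnfsf15, which encodes the ligand TL1A, had means of 3.60 (EY) and 0.935 TPM (N) and a log2 fold change of 1.25 ± 0.20 (SE). All 15 receptors, shedding factors and adaptors were listed and 12 tested, with 0 called in either direction by limma (median 0.13). At an unadjusted p under 0.05, 3 were higher and 2 lower, beside 4367 of all 11629 genes tested in either direction. Tnfrsf1a, the main TNF receptor of epithelial cells, had means of 13.5 (EY) and 11.0 TPM (N; log2 fold change 0.27, adjusted p 0.199). Rhbdf1, a cofactor of the TNF-shedding protease Adam17, was at 0.76 (adjusted p 0.00513) and Adam17 itself at -0.07 (0.587), all 3 singled out with their values known.

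Of 17 other cytokines, among them the IL-6 family, 9 were listed and 6 tested, with 1 called higher and 0 lower. The filter shapes these counts, since Tslp reached 1 TPM in 4 EY and 0 N libraries, and no median is given. The called gene was Clcf1, a cytokine of the IL-6 family, with means of 5.50 (EY) and 1.86 TPM (N) and a log2 fold change of 1.14 ± 0.22 (SE). All 9 factors that bind and mostly destabilize cytokine transcripts were tested, with 1 called higher and 0 lower. The median was 0.32 and the fold change lay above 0 in all 9, against 54.0% of all genes tested. The called gene was Zc3h12a, which encodes Regnase-1, a ribonuclease that cleaves inflammatory transcripts, with means of 3.40 (EY) and 1.01 TPM (N; log2 fold change 1.12 ± 0.19, SE). Zc3h12a reached 1 TPM in 6 EY and 2 N libraries. EY libraries alone met the filter for it, which shapes the counts and the median of this list. Zfp36, which encodes tristetraprolin, a decay factor of Tnf transcripts, was at 0.85 (adjusted p 0.00191) and missed the fold threshold, named with its value known.

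**Figure D4:**
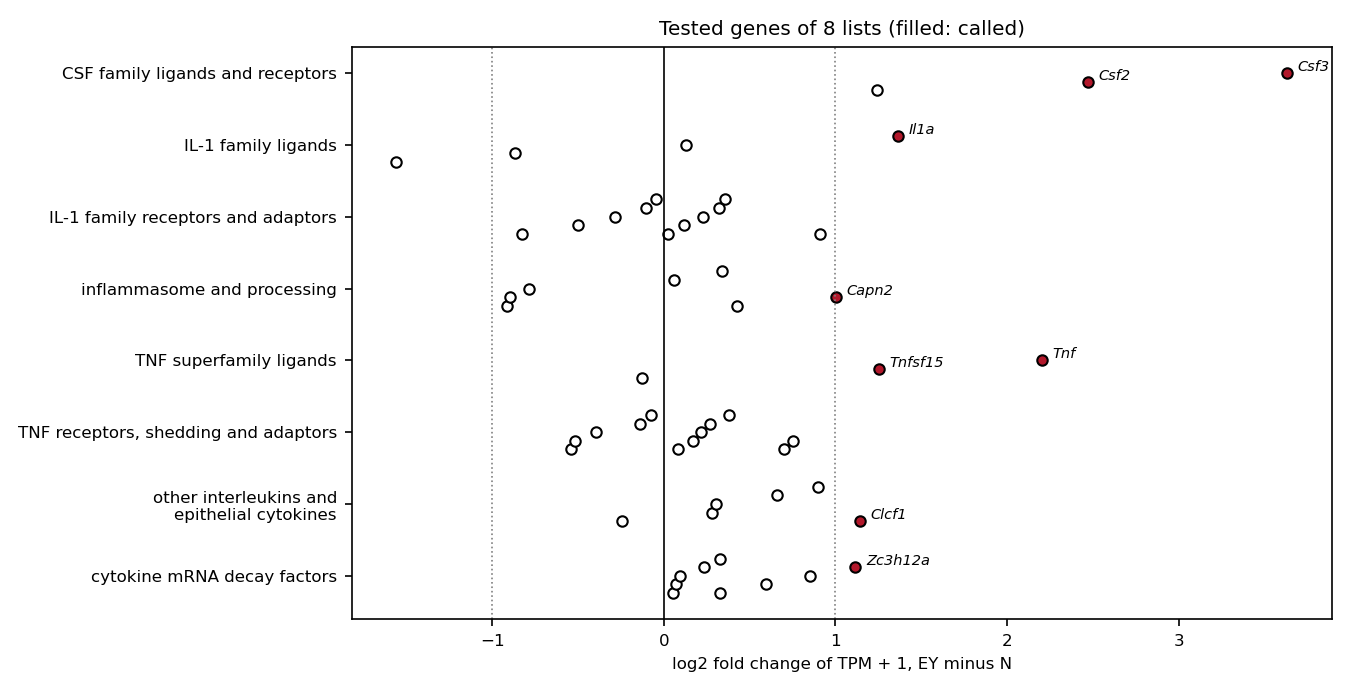
Log2 fold change of TPM + 1 between EY and N for each tested gene of 8 lists, with filled points and names for called genes and dotted lines at the fold threshold. The 3 tested CSF family genes, of which Csf1 and Csf2 passed the filter only through EY, lay between 1.24 and 3.63, and no gene of the lists was called lower.

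Genes whose pattern was most like that of each member were found by Pearson's r of log2(TPM + 1) over the 10 libraries, which share lines, and are given as a description. For Csf3 they were the predicted gene Gm37697 (r = 0.998), the adhesion gene Nectin3 (0.997) and Hist1h2bf (0.996), a histone gene with near-identical copies whose reads are hard to assign. Hist1h2bf averaged 407 TPM in EY3960, 249.6 in EY4028, 36.9 in EY4174 and 1.40 in N. For Tnf they were Ccdc166 (r = 0.986), Mvd of the mevalonate pathway (0.986) and Pglyrp3, a peptidoglycan recognition protein (0.985). For Il1a they were Emc1 (0.988), the lipase gene Lipg (0.986) and Got2 (0.980).

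For Il1rn the most similar genes were the protease gene Tmprss4 (r = 0.991), Itm2b (0.991) and Pthlh, which encodes parathyroid hormone-related protein (0.986). Pthlh averaged 25.1 TPM in EY3960 and 36.3 in N, against 6.71 in EY4028 and 4.80 in EY4174, so that EY4028 and EY4174 were low for both genes. Csf1 was most like Herpud1 (r = 0.984), a gene of the endoplasmic reticulum stress response, Mef2d (0.972) and Gm26692 (0.968). Il18 had lower values, with Rnf135 (r = 0.943), Rgs10 (0.912) and Dnaaf2 (0.906).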

How the data were processed

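Bulk RNA-seq of poly(A) RNA (NovaSeq6000) from 6 EY and 4 N libraries was used, grouped by genotype and line per the labels. The deposited values were TPM computed by the authors, 18586 rows by gene symbol. Of a symbol on more than 1 row the first row was kept, which left out 2 rows. The table does not state how its TPM were made. Per the labels, reads were processed with STAR 2.7.9, SAMtools 1.7, HTSeq 0.13.5 and DESeq2 1.34.0 on GRCm39. The methods of the study describe Kallisto TPM against a human transcriptome, with the highest transcript per gene, for gene set analysis. Length scaling and the choice of transcript affect levels between genes more than differences between libraries, and a rise of abundant genes lowers the TPM of others. Read depth is unknown.

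The 11629 genes that reached 1 TPM in 4 or more libraries were fitted with limma 3.58.1 (R 4.3.3; trend and robust) on log2(TPM + 1). Calls required a Benjamini-Hochberg adjusted p under 0.01 over all genes and a log2 difference over 1 in size, as in the study. Every adjusted p is from limma. EY lines were compared with N, and with one another by an F test requiring a difference over 1 in a pair of lines, in a model with 4 line means. The Il1rn to Il1a ratio was tested by exact permutation in Python 3.11.15. The fits were checked on simulated data. Libraries were independent there, so the check does not bear on treating libraries of a line as replicates. Members, lists and motifs were chosen with earlier results of these data known. Named genes were all 7 members, at most 3 called genes of each list by smallest adjusted p, and the 3 genes most correlated with each tested member. Others are said to be singled out with their values known. Alternative pseudocounts, filters, scalings, blocks and left-out libraries or lines were tried. Promoters were those of RefSeq.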

Additional observations from a re-analysis of the deposited data

Results flagged for a closer look

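Among 26 groups of values examined for a sample far from the others, 3 were found, where chance gives about 1 in 20, or 1.3. The groups were not independent, since Il1rn and its ratio to Il1a share the same Il1rn values, so 3 is not an excess over 1.3 by any test. All 3 concerned N sample 4, which held 0.677 TPM of Tnf and 332 TPM of Il1rn and had a log2 ratio of Il1rn to Il1a of 4.47. Without it the N means were 0.125 TPM for Tnf and 141.7 for Il1rn. The reason was not tested.

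Effects called as different between the EY lines were those of Csf3 (F test of limma, adjusted p 4.70e-06), which was lower in EY4174, and of Csf1 (adjusted p 0.00253), which was higher in EY4028. The Csf1 call was kept in 7 of 10 fits that left out 1 library. Il1a had an adjusted p of 6.25e-04 in the F test but no pair of lines past the fold threshold. With 2 libraries a line, differences between animals and between cultures cannot be told apart.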

How the results depend on the processing

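N was 1 line, so genotype and line cannot be told apart, and treating libraries as replicates makes p-values small. With 1 mean per line, EY against N called 2 genes and 0 members (adjusted p 0.465 for Csf3, 0.178 for Tnf and 0.330 for Il1a), against 413 and 3 otherwise. With line as a random block it called 203 genes and the 3 members kept their calls (adjusted p from 0.00247 to 0.00564). The replicate block by sample number, over 2 shared numbers that mark no shared origin in the labels (correlations between lines of -0.148 to 0.0518), called 221 genes and 1 member: Csf3 (adjusted p 0.0274) and Il1a (0.0186) lost their calls. Between EY lines the replicate block called 4 members against 2. A contrast within 4 line means called 5 members, with Il1rn (adjusted p 0.00217) and Csf1 (1.69e-04) added, and leaving out line EY3960 called 6, with Il18 (0.00674) added. A filter of 5 TPM removed Tnf, Il18 and Csf1 from testing. It left 245 genes called, 3 members in EY4028 and in EY4174, and 1 between lines, and a pseudocount of 0.1 TPM also left 1 between lines.

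Leaving out 1 library gave 295 to 444 genes called in EY against N and 3 members each time. Calls in EY3960 stayed at 3. They ranged from 4 to 5 in EY4028, and from 2 (without its sample 1) to 5 in EY4174, against 6, with 3 without N sample 2. Between lines they ranged from 1 to 4, the 4 without N sample 4, which added Tnf and Il1rn. No member changed direction between EY and N in the up to 25 alternatives run. The Il1rn to Il1a difference kept its side of 0 in all 15, none of which took 1 mean per line.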
